A study of Caenorhabditis elegans with 12 samples.

Results

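The transcripts of 40 genes of muscle contraction and muscle attachment were followed in whole young adult *Caenorhabditis elegans*. The genes were listed by WormBase symbol from the proteins that build and anchor the worm sarcomere, by a rule that uses no measured value. Earlier results of these data were known when they were chosen. They are 10 thick filament, 17 thin filament and 13 attachment genes out of the 46904 genes counted. The study set worms that lack both mitochondrial thiol reductase systems beside worms that lack one of them and beside the wild type. RNA-seq of polyA RNA was done on 3 libraries from each of 4 strains. The double mutant *gsr-1a trxr-2* carries both of the following mutations. The *gsr-1a(syb266)* single mutant has lost, by CRISPR deletion, the first exon of *gsr-1*, which holds the signal that sends glutathione reductase to mitochondria, so that only the cytosolic form GSR-1b is made. The *trxr-2(tm2047)* single mutant has a null allele of mitochondrial thioredoxin reductase. The reference is the N2 wild type. The labels give the libraries a replicate number and do not say which cultures they came from, so the p-values below measure the spread between these libraries.

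Body wall muscle of the worm contracts when myosin heads on thick filaments pull on actin thin filaments. Calcium controls this step through troponin and tropomyosin on the thin filament. The thick filaments have a core of paramyosin and are held at the M-line, the thin filaments are held at dense bodies, and both structures are joined by integrin to perlecan in the basement membrane, which passes the force on to the hypodermis and the cuticle. The pharynx, the feeding organ, has its own set of myosins and troponins.

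Total counts per library lay between 12114187 and 19688212, with a median of 16360615. Levels are given as CPM, which is the count scaled to a library total of 1000000 after adjustment of that total by TMM, a method that assumes most genes to be unchanged. Transcripts of *trxr-2* were nearly absent from the strains labelled with its mutation, at 0 to 0.0658 CPM in *gsr-1a trxr-2* double mutants and 0 to 0.0682 CPM in *trxr-2* mutants, against 12.9 to 14.6 CPM in the wild type. The count of *gsr-1* was taken over the whole gene and does not check its label, since most of the gene is kept in *gsr-1a*: it was 251 to 265 CPM in the double mutants and 254 to 342 CPM in wild-type controls. The 40 genes together took 1.30 to 1.38% of the scaled counts in the double mutants, 1.09 to 1.71% in the *gsr-1a* libraries, 1.11 to 1.55% for *trxr-2* mutants and 0.770 to 1.21% in wild-type controls. As whole animals were sequenced, fewer muscle cells and less RNA per muscle cell cannot be told apart.

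**Figure D1:**
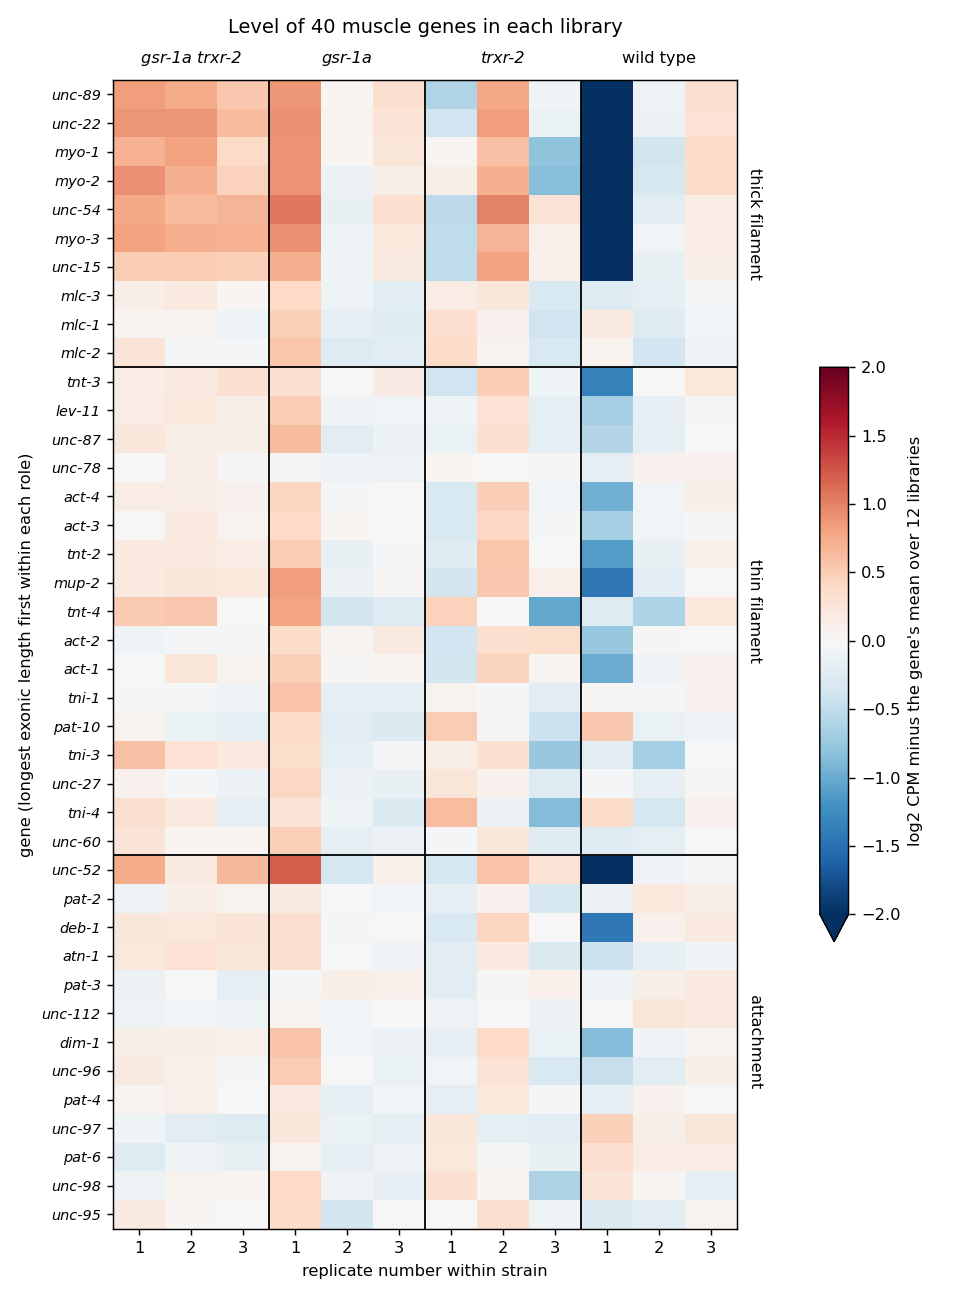
Level of each of the 40 muscle genes (rows, grouped by role and ordered by exonic length) in each of the 12 libraries (columns, grouped by strain), as log2 CPM minus the mean of that gene over all 12 libraries, with blue for lower and red for higher levels and colours limited to 2 in either direction. The darkest column is wild-type replicate 1, where 7 thick filament genes and *unc-52* were far below every other library, and the 3 double mutant columns resemble each other.

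One wild-type library stood apart in many of these genes. Of the 40 genes, 24 had their lowest level of all 12 libraries in wild-type replicate 1. All 7 genes with more than 6000 bp of exons (*unc-54*, *myo-1*, *myo-2*, *myo-3*, *unc-22*, *unc-89* and *unc-52*) were at 5.19 to 13.1% of the mean of the other 2 wild-type libraries. The 6 genes with up to 1000 bp of exons were at 89.8 to 155% of that mean. Over the 22 genes with up to 2000 bp the range was 39.9 to 155%, and 13 of them were below that mean. Genes of middle length differed widely: *unc-15* (3424 bp) was at 16.15% and *deb-1* (3892 bp) at 33.8%, but *pat-2* (3972 bp) was at 81.7%.

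Low levels of long transcripts in wild-type replicate 1 were not confined to muscle. Over all genes tested, the median level relative to the other wild-type libraries was 125% for 4742 genes of up to 1000 bp, 102% for 6407 genes above that and up to 2000 bp, 80.3% for 3085 genes above that and up to 4000 bp, 53.5% for 532 genes above that and up to 6000 bp, and 28.7% for 224 genes over 6000 bp. Across genes within this library, the log2 ratio to the other wild-type libraries fell with exonic length, with a Spearman rho of -0.82 over the 40 muscle genes and -0.47 over 14990 genes, given as a description since the genes share 1 library. Among the 224 longest genes, counted from the lowest, *unc-22* was number 6, *unc-54* number 9, *unc-89* number 11, *myo-3* number 18, *myo-2* number 34, *unc-52* number 40 and *myo-1* number 42. The 7 long muscle genes thus lay in the lower part of their own length class. The *trxr-2* replicate 1 library had a milder form, with a median of 56.3% for the 7 longest muscle genes and 57.1% for all 224 genes over 6000 bp, relative to the other *trxr-2* libraries. Within the 7, *myo-1* and *myo-2* were not low there, at 100.4 and 98.9%, and the rest were at 43.4 to 58.25%. RNA integrity is not given in the sources used here, and the part of transcript length in the differences between strains was not tested. For the genes and lists where it matters most, the comparison with the wild type is given also without replicate 1 of that strain.

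**Figure D2:**
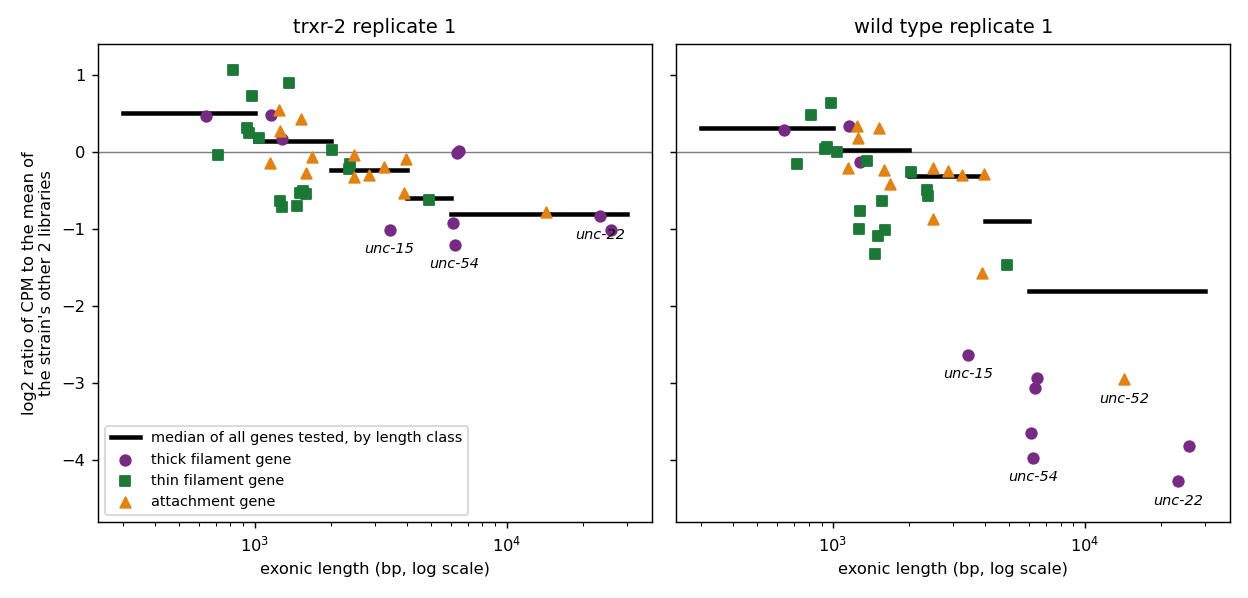
Log2 ratio of the CPM in replicate 1 to the mean of the other 2 libraries of the same strain (vertical axis) against exonic length on a log scale (horizontal axis), for *trxr-2* replicate 1 on the left and wild-type replicate 1 on the right; each symbol is 1 muscle gene and the black bars are medians of all genes tested by length class. In wild-type replicate 1 the long genes *unc-22* and *unc-54* lie at -4.27 and -3.96, below the median of -1.80 for all genes over 6000 bp.

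The first comparison asked which muscle transcripts changed when both mitochondrial reductases were missing. In *gsr-1a trxr-2* double mutants against wild-type controls, edgeR's quasi-likelihood test called 1 of the 40 genes at a Benjamini-Hochberg adjusted p under 0.05, whereas 18.8% of all 15004 genes tested were called. That gene was *pat-6*, and it was lower, as were 6.3% of all genes. None of the 40 was called higher, against 12.5% of all genes. At an unadjusted p under 0.05, 2 were higher (*atn-1* and *tni-3*, against 17.9% of all genes) and 3 were lower (*pat-6*, *unc-97* and *unc-112*, against 14.9%). DESeq2 called none higher (9.78% of all genes) and 2 lower, *pat-6* and *unc-97* (6.38% of all genes). Here and below, shares for DESeq2 are over 21798 genes with any count, a larger set than the 15004 genes tested by edgeR. For 19 genes all 3 double mutant libraries were above all 3 wild-type libraries (47.5%, against 23.9% of all genes), and for 3 genes they were all below (21.6% of all genes). For all 19 the nearest wild-type library was replicate 3, so the gap of each was the same without the library that stood apart. Without wild-type replicate 1, 1 gene was called, *unc-112* (13.6% of all genes), and without the 4 libraries numbered 1 there were 4, *myo-3* higher and *pat-3*, *unc-112* and *unc-97* lower (25.4% of all genes).

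Thick filament genes gave the largest estimates and the widest errors. All 10 had a positive log2 fold change in the double mutants, from 0.05 to 1.25, with a median of 1.09, against a median of 0.03 over all genes tested, although *mlc-1* became negative with scaling on other muscle genes (-0.10) and without wild-type replicate 2 (-0.055). Without wild-type replicate 1 all 10 remained positive, from 0.17 to 0.71, with a median of 0.58. None of the 10 passed the test in either fit. At an unadjusted p under 0.05 none was called with all 12 libraries, and DESeq2 also called none.

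*unc-54* encodes the major myosin heavy chain of body wall muscle and lies on the minus strand of chromosome I between positions 14855901 and 14863573 (WBcel235). It was at 1860, 1701 and 1762 CPM in the double mutants, against 69.3, 942 and 1221 CPM in the wild type. The double mutant libraries had a coefficient of variation of 4.54%, whereas replicate 1 of the wild type was far below both others, and the groups did not overlap. The log2 fold change was 1.25 ± 0.72 (SE, n = 3 per strain; adjusted p = 0.25 by edgeR), and it was 0.71 ± 0.41 (adjusted p = 0.28 by edgeR) without wild-type replicate 1. In the single mutants *unc-54* was at 2287, 988 and 1377 CPM in *gsr-1a* and at 761.8, 2189 and 1320 CPM in *trxr-2*. In both single mutants 1 library was above all double mutant libraries and the other libraries were below them.

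*myo-3* encodes the second body wall myosin, which sits at the centre of the thick filament and is needed to assemble it, and lies on chromosome V between positions 12226816 and 12234343. Its levels were 147, 139 and 137 CPM in the double mutants, against 6.96, 81.7 and 93.6 CPM in wild-type controls, without overlap. The log2 fold change was 1.21 ± 0.64 (adjusted p = 0.21 by edgeR) and 0.68 ± 0.32 (adjusted p = 0.18) without wild-type replicate 1. When all 4 libraries of replicate 1 were left out, *myo-3* was called higher in the double mutants, at 0.65 ± 0.17 (adjusted p = 0.025 by edgeR). Over 21 alternative settings its adjusted p ranged from 0.025 to 0.35. The CPM of *unc-54* exceeded that of *myo-3*, a transcript of similar length, by 12.2 to 12.8 times in the double mutants, 12.5 to 14.4 times for *gsr-1a*, 12.8 to 16.2 times for *trxr-2* mutants and 9.96 to 13.05 times in wild-type controls. The ratio of both body wall myosins therefore varied 1.63-fold over the 12 libraries, while *unc-54* itself varied 33.0-fold and *myo-3* 22.7-fold.

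*myo-2* encodes a myosin heavy chain of the pharynx and lies on chromosome X between positions 12468061 and 12475348. It was at 97.8, 84.7 and 71.4 CPM in the double mutants, against 6.45, 41.4 and 66.8 CPM in the wild type. The groups did not overlap, although the lowest double mutant library was close to the highest wild-type library. Its fitted log2 fold change was 1.14 ± 0.61 (adjusted p = 0.21 by edgeR). The other pharyngeal heavy chain, *myo-1*, had a log2 fold change of 1.08 ± 0.58 (adjusted p = 0.22). Both pharyngeal myosins were the lowest of their strain in *trxr-2* replicate 3, where *myo-2* was at 28.7 CPM, against 56.2 and 84.9 CPM in the other *trxr-2* libraries. The ratio of *myo-2* to *myo-3* was 0.32 in that library, the lowest of all 12, and 0.51 to 0.95 in the other libraries. The pharyngeal troponin genes *tnt-4* and *tni-4* also had their lowest levels of the 12 libraries there, at 8.87 and 24.3 CPM. Low levels in that library were not confined to pharyngeal genes. It was the lowest of all 12 for 11 of the 40 genes, among them *pat-10* of body wall muscle at 746 CPM and *mlc-1* at 370 CPM.

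*unc-22* encodes twitchin, a giant kinase of the thick filament that tunes relaxation, and lies on chromosome IV between positions 11972697 and 12011007. It was at 285, 284 and 239 CPM in the double mutants, against 8.56, 142 and 189 CPM in wild-type controls. The groups did not overlap, with wild-type replicate 1 again far below the rest. This gave a log2 fold change of 1.25 ± 0.72 (adjusted p = 0.25 by edgeR), and 0.70 ± 0.34 (adjusted p = 0.21) without that library. *unc-89*, the worm obscurin of the M-line, had 1.11 ± 0.67 (adjusted p = 0.27). Paramyosin *unc-15*, the filament core, had 0.97 ± 0.53 (adjusted p = 0.23).

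Myosin light chains, which bind the neck of the heavy chain, did not share the large estimates. *mlc-2* and *mlc-1*, which encode nearly identical regulatory light chains and neighbour each other on chromosome X (17455779 to 17456586 and 17459115 to 17460778), had the highest wild-type levels per exonic length of the thick filament genes, 1000.4 ± 156 and 414 ± 63.1 CPM per kb (SD, n = 3). Read pairs that fit both genes were not counted, so that their levels are uncertain. *mlc-2* was at 823, 670 and 670 CPM in the double mutants, against 729, 532 and 662 CPM in the wild type. *mlc-1* was at 509, 517 and 462 CPM in the double mutants, against 555, 409 and 471 CPM in the wild type. For both genes the groups overlapped, and wild-type replicate 1 was the highest of its strain. Their log2 fold changes were 0.17 ± 0.24 (adjusted p = 0.66 by edgeR) and 0.05 ± 0.23 (adjusted p = 0.90). The essential light chain *mlc-3* was at 487, 509 and 457 CPM in the double mutants, against 373, 388 and 432 CPM in the wild type, with 0.29 ± 0.19 (adjusted p = 0.31).

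**Figure D3:**
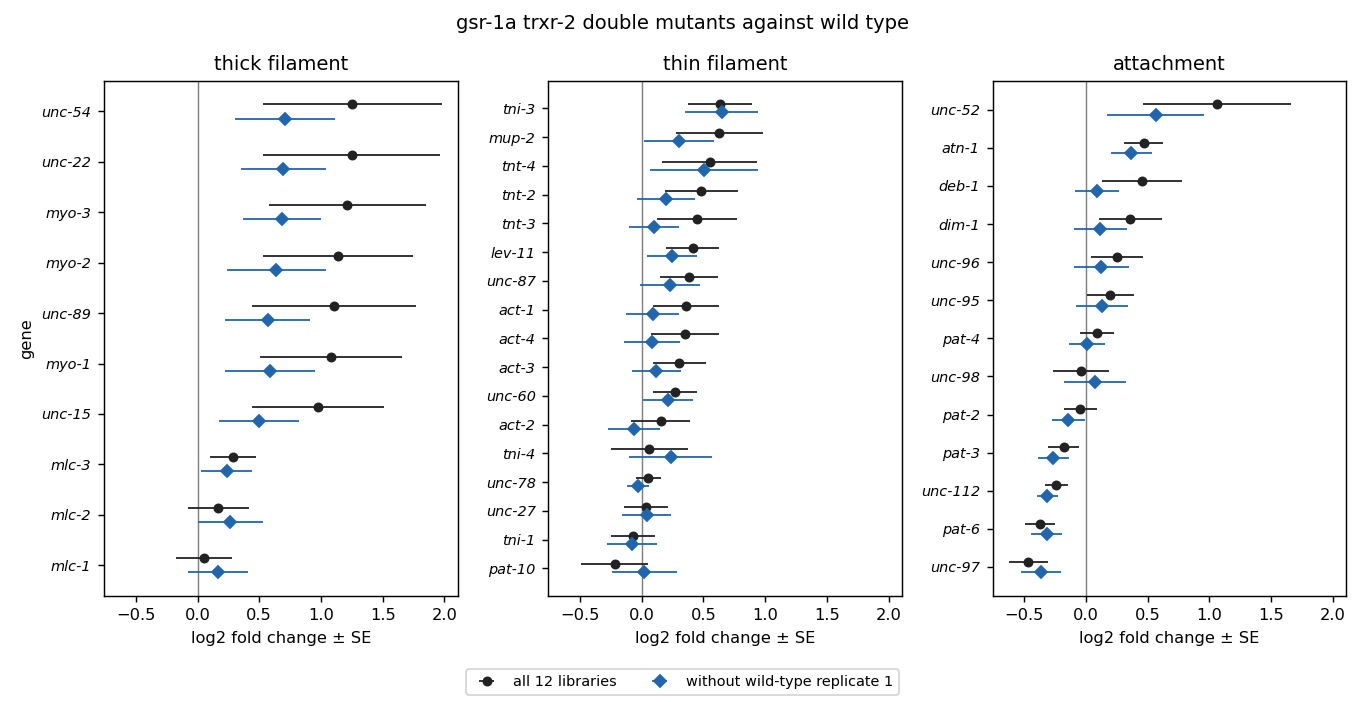
Log2 fold change with its standard error (horizontal axis) for each muscle gene (vertical axis) in *gsr-1a trxr-2* double mutants against wild type, in 3 panels by role, with all 12 libraries (black circles) and without wild-type replicate 1 (blue diamonds). Without that library the estimates of the 7 genes at the top of the left panel, from *unc-54* to *unc-15*, shrink to between 0.50 and 0.71, while *pat-6*, *unc-97* and *unc-112* at the foot of the right panel stay below 0.

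Thin filament genes differed less between strains. In the double mutants 15 of the 17 had a positive log2 fold change, with a range of -0.22 to 0.63 and a median of 0.35, and without wild-type replicate 1 the median was 0.12. None of the 17 passed edgeR's test. At an unadjusted p under 0.05 there was 1, *tni-3*, and DESeq2 called none.

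The actins form the thin filament itself. *act-2*, which lies on chromosome V between positions 11076723 and 11078168, had the second highest wild-type level per exonic length of this role, 810 ± 225 CPM per kb. It was at 1121, 1180 and 1167 CPM in the double mutants, against 706, 1215 and 1193 CPM in wild-type controls. The double mutant libraries lay just below the 2 higher wild-type libraries and well above the third, and the log2 fold change of 0.16 ± 0.24 (adjusted p = 0.68 by edgeR) became -0.06 ± 0.21 (adjusted p = 0.88) without wild-type replicate 1. The share of *act-2* in the counts of *act-1* to *act-4* was 38.3 to 39.7% in the double mutants, 40.5 to 44.5% for *gsr-1a*, 39.2 to 48.2% for *trxr-2* mutants and 39.95 to 44.1% in wild-type controls. The 4 actin genes are nearly identical and read pairs that fit several of them were dropped, so these levels and shares hold only for the pairs that could be placed. *act-1*, to which the study normalised its quantitative PCR, was at 208, 247 and 217 CPM in the double mutants, 290, 212 and 214 CPM for *gsr-1a*, 161, 283 and 216 CPM for *trxr-2* mutants, and 105, 199 and 221 CPM in the wild type. Over the 12 libraries it varied 2.77-fold, from wild-type replicate 1, the library that stood apart, to *gsr-1a* replicate 1. These are counts of placed pairs and do not measure the spread in the quantitative PCR. The log2 fold changes of *act-1*, *act-3* and *act-4* in the double mutants were 0.36 ± 0.27, 0.31 ± 0.22 and 0.35 ± 0.28 (adjusted p = 0.38, 0.35 and 0.41 by edgeR). Wild-type replicate 1 held these 3 genes at 49.9, 64.6 and 49.8% of the mean of the other wild-type libraries. Over 21 alternatives their estimates ranged from 0.091 to 0.56, from 0.12 to 0.41 and from 0.064 to 0.56.

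Troponin and tropomyosin place the calcium switch on the thin filament. *pat-10*, the troponin C of body wall muscle, on chromosome I between positions 5018770 and 5020166, had the highest wild-type level per exonic length of all 40 genes, 1135 ± 307 CPM per kb. It was at 1058, 916 and 890 CPM in the double mutants, against 1457, 916 and 961 CPM in the wild type, where replicate 1 was the high library. The groups overlapped, with a log2 fold change of -0.22 ± 0.27 (adjusted p = 0.60 by edgeR) that became 0.02 ± 0.26 (adjusted p = 0.97) without that library.

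*tni-3*, a troponin I with a known role in muscles outside the main body wall set, on chromosome V between positions 16833638 and 16835144, was at 43.2, 35.4 and 33.0 CPM in the double mutants, against 24.7, 18.1 and 29.2 CPM in wild-type controls. The groups did not overlap. Its log2 fold change was 0.63 ± 0.26 (adjusted p = 0.11 by edgeR), and 0.65 ± 0.30 (adjusted p = 0.18) without wild-type replicate 1, and its adjusted p ranged from 0.050 to 0.29 over 21 alternatives. *lev-11*, the tropomyosin gene, on chromosome I between positions 14621173 and 14631254, was at 1025, 1067 and 999.9 CPM in the double mutants, against 585, 825 and 910 CPM in the wild type. These groups did not overlap either. The log2 fold change was 0.41 ± 0.22 (adjusted p = 0.20), which was 0.24 ± 0.20 (adjusted p = 0.48) without wild-type replicate 1, and its adjusted p ranged from 0.15 to 0.48 over the alternatives.

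The troponin T genes *mup-2*, *tnt-2*, *tnt-3* and *tnt-4* had log2 fold changes of 0.63, 0.48, 0.45 and 0.55 in the double mutants. The troponin I genes *unc-27*, *tni-1* and *tni-4* had 0.04, -0.07 and 0.06. For all 7 the adjusted p was between 0.24 and 0.91 by edgeR. When wild-type replicate 1 was left out, *mup-2* had 0.30, *tnt-2* 0.20, *tnt-3* 0.099, *tnt-4* 0.51 and *tni-4* 0.23. Among the genes that handle actin, cofilin *unc-60* had 0.27, the calponin-related bundling protein *unc-87* had 0.38 and *unc-78*, which helps cofilin to take filaments apart, had 0.05. These were 0.21 for *unc-60*, 0.23 for *unc-87* and -0.033 for *unc-78* without that library. Of all 40 genes *unc-78* was the steadiest, with a 1.25-fold range over the 12 libraries. The annotated span of *unc-60* overlaps another gene on the same strand over 37.9% of its length, where pairs were not counted.

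Attachment genes went both ways, and the only called gene was among them. In the double mutants 7 of the 13 had a positive and 6 a negative log2 fold change, with a range of -0.47 to 1.06 and a median of 0.09, and without wild-type replicate 1 the median was 0.07. Of the 13 genes, 1 was called by edgeR and 4 had an unadjusted p under 0.05, of which *pat-6*, *unc-97* and *unc-112* were lower and *atn-1* was higher. At that level 14.9% of all genes were lower and 17.9% higher, and 18.8% were called by edgeR. As background, these 3 genes encode partners in 1 complex at the cytoplasmic side of integrin: kindlin UNC-112, the parvin PAT-6 and the PINCH protein UNC-97 join the integrin-linked kinase PAT-4 there and start the assembly of dense bodies and M-lines.

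*pat-6* lies on the minus strand of chromosome IV between positions 261886 and 264232 and has 1259 bp of exons. It was at 35.3, 39.95 and 38.1 CPM in the double mutants, against 53.2, 47.04 and 46.8 CPM in wild-type controls. All 3 double mutant libraries were below all 3 wild-type libraries. The fitted log2 fold change was -0.37 ± 0.12 (SE, n = 3 per strain; adjusted p = 0.049 by edgeR). The call was held in 9 of 21 alternatives, with adjusted p between 0.014 and 0.14, and did not survive the removal of any single library of the wild type or of the double mutants, of *gsr-1a* replicate 2 or 3, or of *trxr-2* replicate 2. Leaving out wild-type replicate 1 gave -0.32 ± 0.13 (adjusted p = 0.12). In *gsr-1a* the gene was at 44.2, 37.2 and 39.6 CPM, also below the wild type without overlap (-0.28 ± 0.12, adjusted p = 0.56). In *trxr-2* it was at 48.9, 43.2 and 38.1 CPM, with overlap (-0.18 ± 0.12, adjusted p = 0.85).

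*unc-97* lies on chromosome X between positions 5593133 and 5594965. It was at 44.995, 41.2 and 39.6 CPM in the double mutants, against 66.6, 51.5 and 56.1 CPM in the wild type, without overlap. The estimate was a log2 fold change of -0.47 ± 0.16 (adjusted p = 0.058 by edgeR), just outside the threshold, and 11 of 21 alternatives called *unc-97* lower, with adjusted p between 0.0074 and 0.16. Among single libraries, leaving out *gsr-1a* replicate 1, *trxr-2* replicate 1 or *trxr-2* replicate 2 gave the call, and without wild-type replicate 1 the value was -0.36 ± 0.16 (adjusted p = 0.16). In both single mutants replicate 1 was high, at 55.5 CPM for *gsr-1a* and 55.7 CPM for *trxr-2*, while the other single mutant libraries lay between 40.6 and 43.3 CPM. This puts 4 of the 6 single mutant libraries among the double mutant values.

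*unc-112* lies on chromosome V between positions 14691854 and 14697107. It was at 69.8, 72.0 and 69.5 CPM in the double mutants, against 75.1, 88.5 and 85.7 CPM in wild-type controls. The groups did not overlap, and here wild-type replicate 1 was the low library of its strain. The log2 fold change was -0.24 ± 0.09 (adjusted p = 0.10 by edgeR), and *unc-112* was called lower without wild-type replicate 1, at -0.31 ± 0.09 (adjusted p = 0.039). Its adjusted p lay between 0.011 and 0.30 over 21 alternatives, of which 4 called it. In *trxr-2* it was at 69.5, 74.6 and 69.0 CPM, again below the wild type without overlap (-0.23 ± 0.09, adjusted p = 0.84).

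The rest of the integrin complex was closer to the wild type. *pat-3*, the integrin beta chain, on chromosome III between positions 3908929 and 3914149, was at 177, 190 and 169 CPM in the double mutants, against 179, 208 and 219 CPM in the wild type. The groups overlapped, and the log2 fold change was -0.18 ± 0.13 (adjusted p = 0.35 by edgeR). Without all 4 libraries of replicate 1 *pat-3* was called lower, at -0.26 ± 0.07 (adjusted p = 0.034), and its adjusted p lay between 0.034 and 0.66 over 21 alternatives. The alpha chain *pat-2* had -0.05 ± 0.13 (adjusted p = 0.84). The kinase-like scaffold *pat-4*, which binds parvin and kindlin, was at 32.4, 33.3 and 31.4 CPM in the double mutants, against 27.3, 33.2 and 30.9 CPM in wild-type controls, with 0.09 ± 0.14 (adjusted p = 0.69). The direction of *pat-4* thus differed from that of its 3 partners, without a test of that difference.

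**Figure D4:**
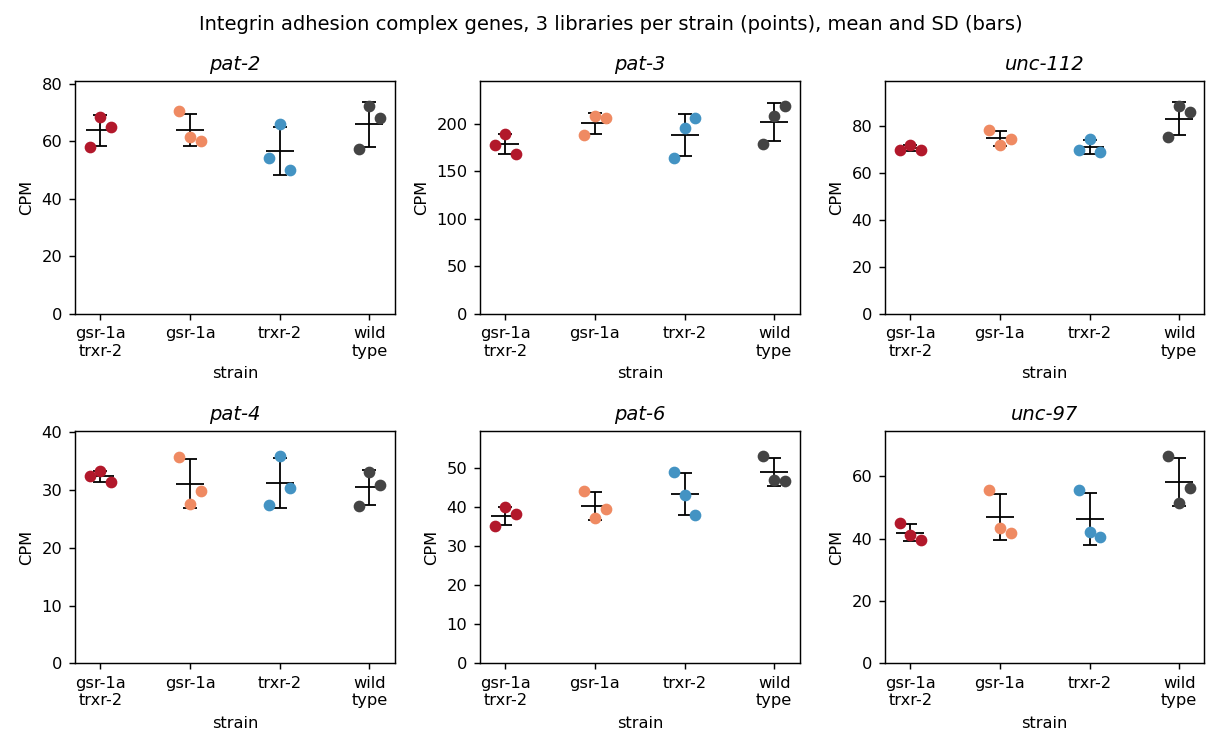
CPM (vertical axes, from 0) of 6 genes of the integrin adhesion complex in each library of the 4 strains (horizontal axes), with points for libraries and bars for the mean and SD of 3 libraries. For *pat-6*, *unc-97* and *unc-112* all double mutant points lie below all wild-type points, and for *pat-2*, *pat-3* and *pat-4* the points of both strains overlap.

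Perlecan and the dense body proteins had positive estimates that did not pass the test. *unc-52*, which encodes perlecan of the basement membrane, had 1.06 ± 0.60 (adjusted p = 0.24 by edgeR) and is 1 of the 7 long genes that were low in wild-type replicate 1, without which it had 0.56 ± 0.39 (adjusted p = 0.38). *atn-1*, the alpha-actinin that crosslinks thin filaments at dense bodies, was at 209, 222 and 212 CPM in the double mutants, against 134, 161 and 170 CPM in the wild type, without overlap. Its log2 fold change was 0.47 ± 0.16 (adjusted p = 0.061), and 1 of 21 alternatives, without *trxr-2* replicate 2, called it higher, with adjusted p between 0.048 and 0.17. With wild-type replicate 1 left out it had 0.37 ± 0.16 (adjusted p = 0.16). Vinculin *deb-1* had 0.45 ± 0.32 (adjusted p = 0.36), and 0.091 ± 0.18 (adjusted p = 0.79) without that library.

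*dim-1* encodes an immunoglobulin-repeat protein found near dense bodies, lies on chromosome X between positions 8050476 and 8058220, and had the highest wild-type level per exonic length of the attachment genes, 79.7 ± 24.9 CPM per kb, ahead of *pat-3* at 71.0 ± 7.20 CPM per kb. *dim-1* was at 254, 256 and 252 CPM in the double mutants, against 127, 223 and 243 CPM in wild-type controls. The double mutant libraries were nearly equal and only just above the highest wild-type library. Here the log2 fold change was 0.36 ± 0.25 (adjusted p = 0.35 by edgeR), and it was 0.12 ± 0.22 (adjusted p = 0.77) without wild-type replicate 1, the low library. The M-line and dense body proteins *unc-95*, *unc-96* and *unc-98* had 0.20, 0.25 and -0.04, with adjusted p between 0.43 and 0.92.

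The single mutants were compared with the wild type to ask what the loss of 1 reductase does. None of the 40 genes was called by edgeR in *gsr-1a*, where 0.0267% of all genes were called, and none in *trxr-2*, where 0.0666% were. At an unadjusted p under 0.05, *pat-6* was lower in *gsr-1a* (8.26% of all genes passed) and *unc-112* was lower in *trxr-2* (5.85%). DESeq2 called none of the 40 in either strain, against 0.184% of all genes in *gsr-1a* and 0.0918% in *trxr-2*. For 3 genes (*act-2*, *act-3* and *atn-1*) all *gsr-1a* libraries were above all wild-type libraries, and for *pat-6* they were all below, while 16.7% of all genes had no overlap there. Between *trxr-2* and the wild type *unc-112* alone among the 40 did not overlap, and it was below (rate over all genes 11.7%). The median log2 fold change of the thick filament genes was 0.82 in *gsr-1a* and 0.55 in *trxr-2*. Without wild-type replicate 1 it was 0.31 for *gsr-1a* and 0.13 for *trxr-2*, and without all 4 libraries of replicate 1 it was 0.017 in *gsr-1a* and 0.23 in *trxr-2*. That last setting called *act-2* higher in *trxr-2*, at 0.36 ± 0.08 (adjusted p = 0.041), where 3.43% of all genes were called, and over 21 alternatives the adjusted p of *act-2* lay between 0.041 and 0.9988. Both comparisons share the wild-type libraries with each other and with that of the double mutant.

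The replicate 1 library of *gsr-1a* was the highest of all 12 libraries for 23 of the 40 genes. It held *unc-54* at 2287 CPM and *unc-52* at 428 CPM, against 988 to 1377 CPM and 146 to 198 CPM in the other *gsr-1a* libraries. The 7 muscle genes over 6000 bp had a median of 179.5% of those libraries, against 91.6% for all 224 genes over 6000 bp. For this and the like counts of highest or lowest levels in other libraries, the share over all genes was not computed. The spread within the strains was accordingly unequal. The median coefficient of variation of the 40 genes was 6.13% in the double mutants, 24.1% for *gsr-1a*, 25.7% for *trxr-2* mutants and 23.3% in wild-type controls. Over all genes tested it was 11.2% in the double mutants, 15.3% for *gsr-1a*, 21.6% for *trxr-2* mutants and 19.1% in wild-type controls. For thick filament genes alone it was 7.84% in the double mutants and 78% in the wild type. The test uses 1 estimate of the spread per gene over all 12 libraries.

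Set against the average of *gsr-1a* and *trxr-2*, the double mutants had 26 genes with a positive and 14 with a negative log2 fold change, from -0.22 to 0.47, with a median of 0.06. None was called by edgeR (13.3% of all genes), none had an unadjusted p under 0.05 (24.1%), and DESeq2 called none (11.9%). The thick filament genes had a median of 0.32 here, a comparison in which the wild-type libraries do not enter the means. Replicate 1 of *trxr-2*, where long transcripts were low, and replicate 1 of *gsr-1a*, where many muscle genes were high, do enter them. Leaving out all 4 libraries of replicate 1 gave a median of 0.29. Without all 4 libraries of replicate 1, *myo-3* was called higher (0.45 ± 0.14, adjusted p = 0.044) and *act-2* (-0.27 ± 0.07, adjusted p = 0.018) and *pat-3* (-0.20 ± 0.07, adjusted p = 0.044) lower, where 28.8% of all genes were called. For *act-2* 2 of 21 alternatives gave this call, with adjusted p between 0.018 and 0.79. For *myo-3* and *pat-3* it was 1 of 21, with adjusted p up to 0.81 for *myo-3* and 0.84 for *pat-3*.

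The interaction asked whether the effect of losing both reductases differed from the sum of the single effects on the log2 scale. None of the 40 genes was called by edgeR (0.766% of all genes), none had an unadjusted p under 0.05 (11.1%), and DESeq2 called none (1.77%). All 10 thick filament genes had a negative interaction, with a median of -0.29, but this rested on 1 library: without wild-type replicate 1, 5 were positive and 5 negative, with a median of 0.07. Without all 4 libraries of replicate 1, *act-2* was called, at -0.49 ± 0.11 (adjusted p = 0.048), where 2.7% of all genes were called. This was the call of 1 of 20 alternatives, with adjusted p between 0.048 and 0.92.

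Among other muscle genes, 6 lists with 106 genes tested held 2 genes that were called higher and 4 that were called lower in the double mutants, against 12.5% of all genes higher and 6.3% lower. There were 2 higher and 6 lower without wild-type replicate 1, where 13.6% of all genes were called in either direction. By list, 1 of 31 other sarcomere genes was called higher and 1 lower, 1 of 21 genes of excitation and calcium higher, 1 of 20 genes of the basement membrane and fibrous organelles lower and 2 of 8 muscle transcription factors lower. No gene was called by edgeR among 16 transmitter receptor genes or 10 dystrophin complex genes, nor among 11 genes of non-muscle actomyosin. In the fit without wild-type replicate 1, 3 of the 20 basement membrane genes and 2 of the 8 transcription factors were called lower. Without all 4 libraries of replicate 1, where 25.4% of all genes were called, 6 of the 20 basement membrane genes and 6 of the 8 transcription factors were called lower, 3 other sarcomere genes were higher and 2 lower, 2 genes of excitation and calcium were higher, and 1 receptor gene and 2 dystrophin complex genes were lower. In that setting 1 gene of non-muscle actomyosin was higher and 1 lower.

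*cpna-1*, a copine that links the integrin complex to M-lines and dense bodies, rose to 132, 106 and 115 CPM in the double mutants, against 12.7, 43.8 and 50.6 CPM in wild-type controls. The groups did not overlap, and all *gsr-1a* and *trxr-2* libraries were at 40.2 to 68.3 CPM. The log2 fold change was 1.71 ± 0.38 (adjusted p = 0.0097 by edgeR), and 1.31 (adjusted p = 0.0040) without wild-type replicate 1. *itr-1*, the calcium channel of the endoplasmic reticulum that opens with inositol trisphosphate, rose to 110 ± 21.2 CPM (SD, n = 3) in the double mutants, against 67.9 ± 11.3 CPM in the wild type, with 0.69 ± 0.16 (adjusted p = 0.010), and 0.56 (adjusted p = 0.030) without wild-type replicate 1.

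The 4 lower genes were 2 muscle transcription factors, a laminin chain and a partner of the adhesion sites. *hlh-1*, the worm MyoD, fell to 6.78, 4.38 and 5.90 CPM in the double mutants, against 8.92, 8.77 and 8.77 CPM in wild-type controls, a log2 fold change of -0.64 ± 0.18 (adjusted p = 0.027 by edgeR). *unc-120*, a serum response factor homolog that acts with it, fell to 12.8, 10.3 and 11.5 CPM in the double mutants, against 21.2, 19.4 and 18.9 CPM in the wild type, with -0.78 ± 0.20 (adjusted p = 0.019). For both genes the groups did not overlap. The single mutants were low as well. *hlh-1* was at 6.53 to 7.14 CPM in *gsr-1a* and 6.50 to 7.97 CPM in *trxr-2*, below all wild-type libraries. *unc-120* was at 11.1, 13.3 and 14.1 CPM in *gsr-1a* and at 19.7, 11.8 and 11.8 CPM in *trxr-2*. Without wild-type replicate 1 the adjusted p was 0.061 for *hlh-1*, which lost its call, and 0.0499 for *unc-120*. *lam-3*, a laminin alpha chain of the basement membrane, fell to 38.8 ± 2.97 CPM in the double mutants, against 72.9 ± 17.99 CPM in the wild type (-0.91 ± 0.20, adjusted p = 0.0092). *git-1*, an adaptor protein of the PIX pathway at muscle attachments, fell to 25.8 ± 1.16 CPM in the double mutants, against 36.9 ± 2.69 CPM in wild-type controls (-0.52 ± 0.12, adjusted p = 0.014). When wild-type replicate 1 was left out, *lam-3* had -1.11 (adjusted p = 0.0035) and *git-1* had -0.46 (adjusted p = 0.042). In the single mutants *lam-3* was at 35.3, 54.7 and 53.2 CPM in *gsr-1a* and at 47.4, 45.5 and 39.7 CPM in *trxr-2*. *git-1* was at 26.4, 31.3 and 35.9 CPM in *gsr-1a* and at 32.9, 30.1 and 31.9 CPM in *trxr-2*. None of the 4 genes was called by edgeR in a single mutant. However, many single mutant libraries were low as well, and no test of the double against the single mutants is given for these genes. The falls are therefore not shown to be particular to the double mutants. Over the alternatives the adjusted p of *cpna-1*, *itr-1* and these 4 genes lay between 0.00020 and 0.0845.

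Transcripts of other tissues also differed between the strains. Of 17 listed sperm markers 15 were tested, and *msp-31* had no count in any library. The summed level of the 15 tested was 226.5 to 475 CPM in the double mutants, 141 to 240 CPM for *gsr-1a*, 68.5 to 130 CPM for *trxr-2* mutants and 58.1 to 98.3 CPM in wild-type controls. The number called higher in the double mutants was 13 of 15 (12.5% of all genes were). It was 11 of 15 without wild-type replicate 1. Of 17 neuronal markers tested, 5 were called higher (2 without wild-type replicate 1, 4 without all 4 libraries of replicate 1), with sums of 447 to 515 CPM in the double mutants and 344 to 406 CPM in the wild type. The 6 yolk genes summed to 34535 to 40968 CPM in the double mutants and 3002 to 46121 CPM in the wild type, with the lowest sum in wild-type replicate 1. None of the 6 was called with all 12 libraries, 1 was called lower without wild-type replicate 1 (median log2 fold change -1.43), and 4 were called lower without all 4 libraries of replicate 1 (median -1.26). Of the other marker lists, 4 of 12 intestinal genes were called higher and 1 lower, 3 of 13 genes of the hypodermis and cuticle higher and 1 lower, 1 of 16 germline genes and 1 of 10 embryonic genes lower (6.3% of all genes were), and edgeR called none of 13 oocyte genes, 8 genes of pharyngeal glands and marginal cells or 6 genes of coelomocytes and gonadal sheath. Leaving out wild-type replicate 1, 0 genes of the hypodermis and cuticle were called higher and 2 lower, no germline or embryonic gene was called and the intestinal counts were the same. Without all 4 libraries of replicate 1, 6 genes of the hypodermis and cuticle were higher and 3 lower, and 2 genes of coelomocytes and gonadal sheath were higher. The part of these tissues in the levels of the muscle genes was not tested.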

How the data were processed

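The authors deposited raw counts of read pairs per gene, 1 file per library, for 12 libraries of whole young adults (3 per strain, strand-specific polyA libraries). The submitters' processing notes name FastQC, HISAT2, SAMtools, featureCounts 2.0.0 and the build WBcel235. Per the file headers, pairs on the annotated strand were counted across each full gene (Ensembl release 97), so that introns entered the counts, and pairs with more than 1 placement or gene were dropped, which lowers the counts of near-identical and overlapping genes. Coordinates are those of the deposited files. A symbol was found for 93.8% of the 46904 gene IDs, and exonic lengths came from release 115 of the same build.

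Groups and replicate numbers came from the labels. All 12 libraries were fitted together in edgeR 4.0.16 (R 4.3.3) with TMM, edgeR's filter on low counts and 1 mean per strain (8 residual degrees of freedom). The quasi-likelihood test was adjusted by Benjamini-Hochberg over the 15004 genes tested, with a threshold of 0.05, and a standard error is the log2 fold change divided by the square root of F. The procedure was tested on simulated data. DESeq2 1.42.0, RLE size factors, scaling on other muscle genes, other filters, fits of only the strains compared, a replicate block and fits without single libraries were alternatives. Leaving out replicate 1 of both wild type and *trxr-2* was added after the data were seen. Total counts were 12114187 to 19688212 per library, and no column was left without a sample.

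Same-numbered libraries of wild type and *gsr-1a* deviated together (correlations 0.13 to 0.23), as did those of wild type and *trxr-2* (0.24 to 0.50), and a block changed no muscle gene call there. Wild-type replicate 2 with *trxr-2* replicate 3 gave 0.25, and wild-type replicate 3 with *trxr-2* replicate 2 gave 0.34. The same-numbered pairs 2 and 3 of these strains gave 0.29 and 0.24, so among replicates 2 and 3 these values do not set a shared number apart. Replicate 1 did stand apart: the 2 libraries gave 0.50 together, and -0.41 to -0.30 with replicates 2 and 3 of the other strain. Same-numbered libraries of wild type and double mutants did not all deviate together (-0.06 to 0.22), and no label says that a number marks a shared culture.

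The 40 genes and the lists of other muscle genes and tissue markers were chosen with earlier results of these data known. Values in every library are given for genes called in any of 5 comparisons and, per role, for the 2 genes with the highest wild-type level per exonic length and the 2 with the smallest adjusted p in double mutants against wild type. From each list of other muscle genes up to 3 called genes were named. Library values of *unc-54*, *unc-22*, *unc-112*, *act-1*, *mlc-3*, *pat-4* and *atn-1* were added after their values were seen.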

Additional observations from a re-analysis of the deposited data

Results flagged for a closer look

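For 3 of the 40 muscle genes, all libraries moved one way in one background and the opposite way in the other. In *mup-2*, a troponin T gene, all *trxr-2* libraries were above the wild-type mean, while all *gsr-1a trxr-2* libraries were below the *gsr-1a* mean, with an interaction of -0.661 ± 0.50 on the log2 scale (SE; adjusted p = 0.74 by edgeR). The interaction was -0.35 without wild-type replicate 1. In *dim-1* the same pattern had an interaction of -0.345 ± 0.36 (adjusted p = 0.83), which was -0.12 without that library. In *act-2* all *gsr-1a* libraries were above the wild-type mean and all double mutant libraries were below the *trxr-2* mean, with an interaction of -0.587 ± 0.34 (adjusted p = 0.61), which was -0.38 without that library. None of these 3 interactions passed the test with all 12 libraries, and the wild-type mean of each gene was lowered by replicate 1. The opposite direction in *mup-2* and *dim-1* also rested on *gsr-1a* replicate 1. *mup-2* was at 249 to 254 CPM in the double mutants, against 386, 200 and 220 CPM in *gsr-1a*, and *dim-1* was at 252 to 256 CPM in the double mutants, against 346, 226 and 216 CPM in *gsr-1a*, so that the double mutants lay above the other *gsr-1a* libraries. Without all 4 libraries of replicate 1 the interaction was -0.21 for *mup-2*, 0.0090 for *dim-1* and -0.49 for *act-2* (adjusted p = 0.048).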

How the results depend on the processing

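The count of muscle genes called lower in double mutants against wild type was 1. It was 2 with DESeq2, with RLE size factors, with a filter of more than 1 CPM in 3 libraries and with the replicate block (*pat-6* and *unc-97*), 3 with scaling on other muscle genes, without all 4 libraries of replicate 1 and without replicate 1 of wild type and *trxr-2*, and 0 when a fold over 2 was also required. With 1 library left out it ranged from 0 to 2. It was 0 without wild-type replicate 2 or 3, without *gsr-1a* replicate 2 or 3 and without any double mutant library, and 2 without replicate 1 of *gsr-1a* or of *trxr-2*. The count called higher ranged from 0 to 1 with 1 library left out and was 1 without all 4 libraries of replicate 1. That last setting also gave 1 gene higher in *trxr-2* against wild type, 1 higher and 2 lower against the average of the single mutants (1 lower without replicate 1 of wild type and *trxr-2*), and 1 lower for the interaction. The block changed no other count. By role, the median log2 fold changes kept their sign in the alternatives run, except that of the attachment genes, which was -0.058 with scaling on other muscle genes. That scaling put the median of all genes at -0.12, against 0.03 with TMM. Signs turned for *mlc-1* (-0.10 with that scaling, -0.055 to 0.17 with 1 library left out), *pat-10* (-0.35 to 0.019 with 1 library left out, 0.019 without replicate 1 of wild type and *trxr-2*) and *act-2* in double mutants against wild type (-0.064 to 0.28 with 1 library left out, -0.044 without all 4 libraries of replicate 1, -0.064 without replicate 1 of wild type and *trxr-2*). The causes were not tested. The spread between replicates on the log2 scale was 0.76 for thick filament genes, 0.24 for thin filament genes and 0.21 for attachment genes.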
